A study of Sus scrofa with 30 samples.

Results

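The teat epithelium of the pig is cut from a small organ that also holds connective tissue, fat, vessels and muscle, and the epithelial arrays described here differ widely in how much skeletal muscle transcript they carry. The 15 epithelial arrays were ranked by the mean deposited log2 value of MYLPF, TNNT3, MYH2 and TNNC2, with each gene read from whichever of its probe sets was brightest on average over all 30 arrays of the series. The 5 highest arrays (much muscle) were compared with the 5 lowest (little muscle), and the 5 arrays between them were kept as a reference. The arrays were thus chosen by the measured values of these 4 genes, so every difference between the 2 ends of the rank is a description, and no test of it was made.

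Expression was measured with Affymetrix Porcine Genome arrays in epithelial and mesenchymal teat tissue of 10 peripubertal pigs of commercial dam lines, sampled at slaughter at a mean end weight of 110 kg. A normal teat of each of 5 non-affected animals, a normal teat of each of 5 affected animals and an inverted teat of each of the same affected animals gave 6 groups of 5 arrays over both tissues. The question of the series is what predisposes a pig to inverted teats, and teats were classed as inverted or normal by inspection and palpation. Animals 957, 1040, 1058, 950 and 1109 were non-affected, and 963, 964, 1037, 1059 and 1103 were affected. By breed, 6 of the animals were Large White x German Landrace, 957 and 963 were German Landrace, and a Pietrain x (Large White x German Landrace) cross gave 1103 and 1109. The tissue of an array is a dissected layer and not a sorted cell type, and in such bulk samples fewer cells of a type and less RNA per cell cannot be told apart.

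Skeletal muscle contracts through sarcomeres, repeated units of myosin thick filaments and actin thin filaments anchored at Z-discs, and calcium starts contraction through the troponin complex on the thin filament. Fast fibres use their own isoforms of myosin and troponin and draw on phosphocreatine and glycolysis, while slow fibres rely more on mitochondria. In skin of the trunk a sheet of striated muscle lies under the dermis and its fat, next to connective tissue and vessels, whereas the teat proper is known for smooth muscle, so the markers of these neighbours were read beside the muscle genes.

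The muscle mean ran from 0 to 10.92. The much-muscle arrays were the inverted teat of 1037 at 8.52, the inverted teat of 964 at 8.82, the normal teat of 1058 at 9.25, the inverted teat of 963 at 9.63 and the normal teat of 963 at 10.92. The little-muscle arrays were the normal teat of 1040 at 0, with all 4 genes listed at 0, the normal teat of 1109 at 0.70, the normal teat of 964 at 0.76, the inverted teat of 1059 at 0.89 and the normal teat of 957 at 1.58. At the upper border the last array inside stood at 8.52 and the first outside, the normal teat of 950, at 8.27. At the lower border they stood at 1.58 and 1.62, the latter being the normal teat of 1059. The borders therefore cut through neighbours with nearly the same value, while wider gaps lay among the other intermediate arrays, at 1.72, 4.06 and 4.85.

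**Figure D1:**
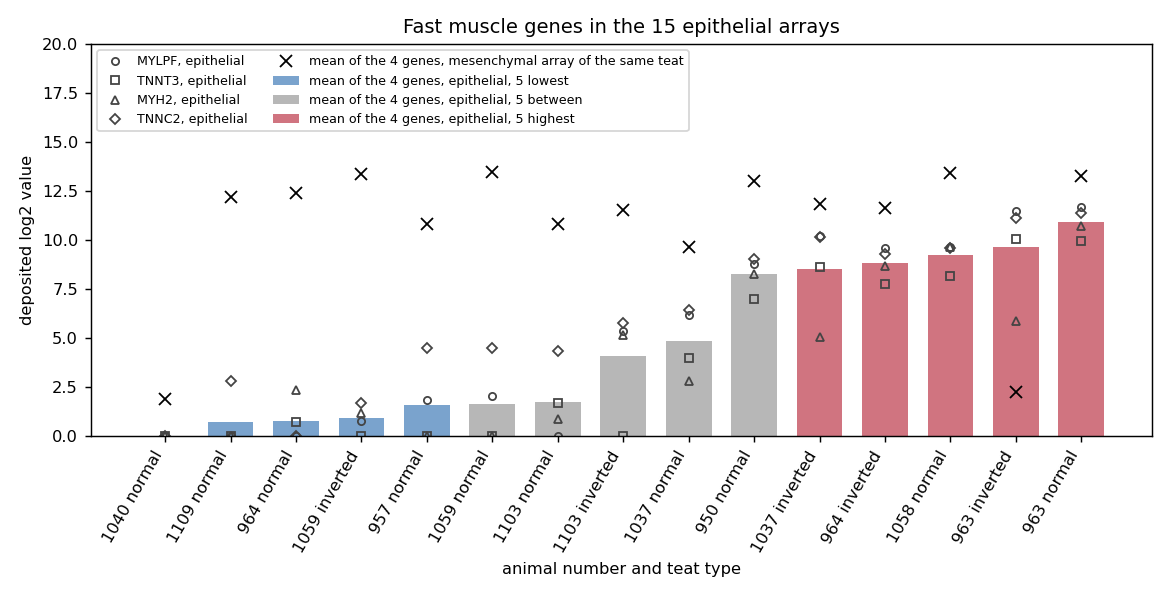
Deposited log2 values of 4 fast muscle genes (open symbols) and their mean (bars) in the 15 epithelial arrays, in the order of the mean, with the mean of the same genes in the mesenchymal array of the same teat (crosses). Bars reach 8.52 to 10.92 in the 5 highest arrays and 0 to 1.58 in the 5 lowest, while the crosses stand high in 13 of 15 teats at either end.

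Of the 5 much-muscle arrays, 3 were from inverted teats, 1 from a normal teat of an affected animal and 1 from a non-affected animal, and they came from 4 animals because 963 gave both of its teats. Of the 5 little-muscle arrays, 1 was from an inverted teat, 1 from a normal teat of an affected animal and 3 from non-affected animals. Animal 964 stood at both ends, with its inverted teat high and its normal teat low. Luminal keratins were level between the ends. KRT8, KRT18 and KRT19 averaged 10.22 ± 0.56 (SD, n = 5) with much and 10.20 ± 0.36 with little muscle. This keratin mean cannot check the layer label, because mesenchymal arrays ran from 2.38 (normal teat of 1103) to 11.14 (inverted teat of 964). In the inverted teat of 963 it was 10.50 in the epithelial and 10.39 in the mesenchymal array. The lowest keratin mean of the 15 epithelial arrays, 6.75 in the inverted teat of 1103, belonged to an array between the ends. Array medians lay between 5.76 and 5.87 at both ends. The difference between 3' and 5' probe sets of actin, a sign of RNA integrity, was 1.36 ± 0.26 with much and 1.18 ± 0.19 with little muscle, that of GAPDH was 1.32 ± 0.22 and 1.42 ± 0.10, and 512 ± 72.8 against 596 ± 88.3 probe sets per array were listed at 0. The part of RNA integrity in the differences was not tested, and with 5 arrays at each end the precision of all of them is limited by that number.

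MYLPF, a regulatory light chain of fast myosin, was at 10.22, 9.61, 9.62, 11.47 and 11.68 in the much-muscle arrays, in the order given above, against 0, 0, 0, 0.74 and 1.84 in the little-muscle arrays. TNNT3, the fast troponin that binds tropomyosin, was at 7.78 to 10.05 against 0 on 4 little-muscle arrays and 0.70 on the normal teat of 964. TNNC2, the fast calcium-binding troponin, was at 9.26 to 11.37 against 0 to 4.48. MYH2, the heavy chain of fast oxidative fibres, varied most among the much-muscle arrays. It was at 8.65, 9.64 and 10.70 in the inverted teat of 964, the normal teat of 1058 and the normal teat of 963, but at 5.07 and 5.88 in the inverted teats of 1037 and 963, although MYLPF was at 10.22 and 11.47 there. The arrays with much muscle thus did not share a fixed ratio of these fast fibre genes.

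Among 17661 probe sets above a filter on low values, 41 were higher by over 1 on the log2 scale in the much-muscle arrays with ranges that did not overlap, which is 0.232% of all. Only 2 were lower by the same rule, 0.0113%. Since the rank used the same arrays, nothing is read from these shares. The 41 included 30 probe sets of 28 named genes, and 26 of these genes were on the 6 lists of skeletal muscle genes. The other two were ACTG1 and LETM1, and 11 probe sets had no single gene name. The ACTG1 probe set ran from 10.73 to 12.77 with much and from 0 to 4.51 with little muscle. The ACTG1 probe set with the highest mean was level at 12.69 ± 0.08 and 12.72 ± 0.14 (SD, n = 5 each), so the name of the first is uncertain between the actins. LETM1, a protein of the mitochondrial inner membrane, was higher by 1.04, with its ranges nearly touching at 4.89 and 4.83.

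The skeletal muscle genes went along to very different degrees. Of 90 listed genes with a probe set, 66 passed the filter and 24 did not. All 9 filtered genes of the fast sarcomere list were higher (median 7.29) and 8 had separate ranges, but these include the 4 ranking genes. The other 5 were higher by a median of 2.81, and 4 of them had separate ranges. MYL1, an essential light chain of fast myosin, was higher by 7.48 and TNNI2, the inhibitory fast troponin, by 5.10. These were followed by the Z-disc protein MYOZ1 with 2.81 and the M-band protein MYOM2 with 2.18. The calcium pump ATP2A1 was higher by 1.85 in its brightest probe set. Another ATP2A1 probe set differed by 7.47, at 6.75 to 8.91 with much and 0 to 1.56 with little muscle. Of the list of sarcomere and Z-disc structure, 26 of 29 were higher (median 0.53), 8 of them by over 1 with separate ranges. The giant elastic protein TTN was at 7.25 to 8.98 with much and 0 to 2.94 with little muscle, and its other probe set differed by 6.56 where the first differed by 6.86. KLHL41, a regulator of thin filament stability, was higher by 6.57 and SMPX, a small muscle protein of the costamere, by 4.94. NEB, the ruler of the thin filament, was higher by 4.25.

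Slow fibre genes showed a mixed picture. All 6 filtered members were higher, with a median of 0.91, and 3 had separate ranges. SLN, sarcolipin, which inhibits the calcium pump of the sarcoplasmic reticulum, was at 8.59, 7.59, 7.36, 9.33 and 9.74 against 3.81, 3.59, 3.79, 3.74 and 0.99. MYBPC1, slow myosin-binding protein C, was higher by 4.29 and TNNC1, the slow and cardiac calcium-binding troponin, by 1.25. TNNC1 had its highest levels between the ends, at 9.06 and 9.61 in the normal and inverted teats of 1103, where the muscle mean was 1.72 and 4.06. The slow myosin heavy chain MYH7 was higher by 0.57 and its light chain MYL3 by 0.02, both with overlapping ranges.

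Genes of muscle energy supply were higher for 14 of 16 (median 0.73). The muscle creatine kinase CKM was at 8.97 to 11.44 against 4.25 to 5.64, a difference of 5.62. The muscle enolase ENO3 differed by 5.15, the phosphoglycerate mutase PGAM2 by 5.13, the glycogen phosphorylase PYGM by 3.05 and the AMP deaminase AMPD1 by 2.90. The inverted teat of 964 had the lowest mean of this list among the much-muscle arrays, 7.51 against 8.33 to 8.55 in the others. Lists of excitation (2 of 6 measured genes, median -0.19) and of muscle regulators (4 of 9, median 0.08) hardly passed the filter. Under the filter, RYR1 of the excitation list was higher by 3.87 with separate ranges, at 5.19 and 1.31 on average. ACTC1 of the sarcomere and Z-disc structure list and CKMT2 of the energy list were likewise higher there, by 4.24 and 3.23 with separate ranges. CHRNA1, a subunit of the acetylcholine receptor of the neuromuscular junction, had 10.33 ± 0.46 with much and 10.88 ± 0.37 with little muscle, and FBXO32, a ubiquitin ligase of muscle atrophy, 8.85 ± 0.34 and 9.06 ± 0.30.

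Against this, genes outside the muscle lists differed little. Over 6013 genes above the filter 53.0% were higher with much muscle, with a median difference of 0.01, and 42 of 5947 genes on no muscle list differed by over 1 in either direction. Lists of other tissues are given below by the number of members that were higher and by their median, to be read beside that background of all genes.

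**Figure D2:**
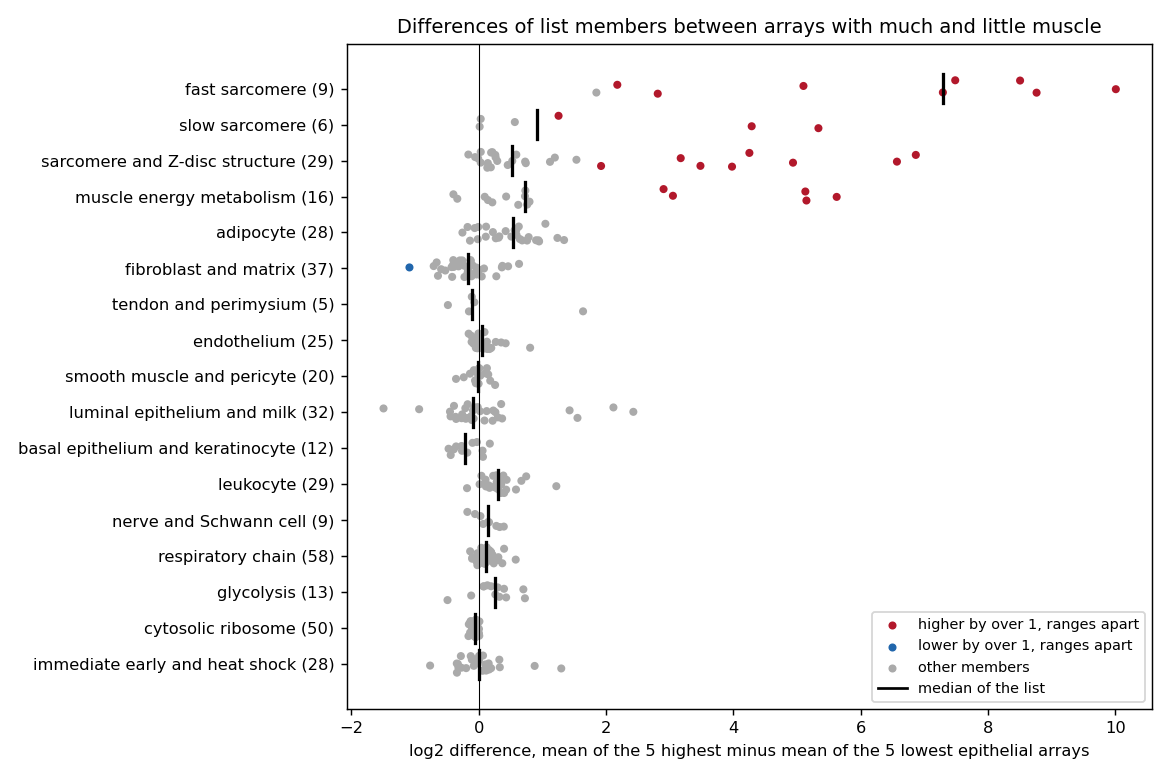
Differences of list members between the 5 epithelial arrays with much and the 5 with little muscle, on the log2 scale, 1 point per gene above the filter with the number of genes in brackets. Red and blue points differ by over 1 with separate ranges, and black bars are list medians. Points far to the right belong to the muscle lists, the adipocyte bar stands at 0.54, and the fibroblast and matrix bar at -0.18.

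Fat genes tended to higher values with much muscle but did not part the arrays. Of 28 adipocyte genes above the filter 22 were higher, with a median of 0.54 and none called. The median was 0.25 without the normal teat of 1058 and 0.85 without the inverted teat of 964. GPD1, which makes the glycerol backbone of triglycerides, was at 7.21, 5.21, 8.16, 7.47 and 6.90 with much muscle and at 6.23, 4.97, 5.38, 6.62 and 5.06 with little. LPL, the lipase that frees fatty acids from lipoproteins, was at 9.98, 7.70, 11.19, 10.55 and 9.35 against 9.67, 8.06, 8.23, 9.44 and 8.12. In GPD1 4 and in LPL 3 much-muscle arrays stood above every little-muscle array, and the inverted teat of 964 stood near or below the lowest of them.

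GPAM, the first acyltransferase of glycerolipid synthesis, was higher by 1.24 in its main probe set but by 0.05 and -0.29 in its other probe sets. The hormone ADIPOQ was higher by 0.94, the hormone-sensitive lipase LIPE by 0.95, the acyltransferase DGAT2 by 0.90 and the fatty acid carrier FABP4 by 0.76. Members at the other end were CES1 with -0.26 and AGPAT2 with -0.17. The mean of the list was 8.62 ± 0.79 (SD, n = 5) with much and 8.15 ± 0.32 with little muscle, so the spread was wider in the first. It reached 9.50 in the normal teat of 1058 and was below every little-muscle array in the inverted teat of 964, at 7.42. The second highest list mean of the 15 arrays, 9.46, was in the normal teat of 1037, which had an intermediate muscle mean of 4.85.

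Connective tissue genes leaned the other way by a small amount. Of 37 fibroblast and matrix genes 29 were lower with much muscle (median -0.18, or -0.31 without the normal teat of 964 and -0.12 without that of 1058). LOX, the enzyme that crosslinks collagen and elastin, was the only called gene above the filter on any of the lists outside muscle. It was at 8.85, 9.38, 8.73, 9.02 and 8.68 with much muscle and at 9.85, 11.41, 9.49, 9.79 and 9.54 with little, where the normal teat of 1109 stood alone at the top. The difference was -1.09, it was -0.27 in the other LOX probe set, and it was -0.49 among the animals with high CSN2 described below.

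The fibrillar collagens COL3A1 and COL1A2 had differences of -0.71 and -0.64, the gelatinase MMP2 -0.59 and the matricellular CYR61 -0.66, all with overlapping ranges. COL3A1 was at 5.67 to 7.03 with much and 6.82 to 7.46 with little muscle. The proteoglycans DCN and LUM, with -0.12 and -0.09, and SPARC, with -0.05, were nearly level. The largest opposite differences were 0.63 in FAP, a protease of activated fibroblasts, and 0.46 in the matrix glycoprotein TNC. Of 5 tendon and perimysium genes CILP, a cartilage matrix protein, alone was higher. It was at 5.79, 5.30, 5.11, 5.93 and 6.74 against 5.22, 4.06, 3.57, 4.71 and 3.09, a difference of 1.64 that was 0.42 in its other probe set, and only the normal teat of 1040 reached into the range of the much-muscle arrays.

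Vessel genes were close to level. Of 25 endothelial genes 14 were higher, with a median of 0.05. PECAM1 and CDH5, adhesion molecules of endothelial junctions, differed by 0.07 and 0.13, and the clotting factor carrier VWF by 0.00. The largest difference was in LYVE1, a hyaluronan receptor of lymphatic vessels, at 7.53 ± 0.32 against 6.72 ± 0.78 (SD, n = 5 each). Its other probe sets gave -0.01 and 0.71, where this one gave 0.81. The normal teat of 1040, with all 4 muscle genes at 0, had LYVE1 at 7.72, close to the highest much-muscle array at 7.94. GPIHBP1, which holds LPL on capillaries, differed by 0.42 and the VEGF receptor FLT1 by 0.35. Other FLT1 probe sets, under the filter, gave -0.70 and 0.21. Smooth muscle and pericyte genes were level, with 8 of 20 higher and a median of -0.01. ACTA2 was at 12.35 and 12.32, TAGLN at 10.96 and 10.95, and CNN1 at 9.38 and 9.25 on average with much and little muscle.

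Of 32 luminal and milk genes above the filter 13 were higher (median -0.08), and the largest differences on this list were in milk genes. Under the filter, the membrane mucin MUC4 had a difference of -1.79 with separate ranges. The adhesion molecules EPCAM and CDH1 differed by -0.02 and -0.09, and the keratins KRT8, KRT18 and KRT19 by 0.30, 0.02 and -0.26. The milk genes CSN2 and CSN1S1 (caseins) and PAEP (a whey protein of the lipocalin family) were higher by 2.43, 2.12 and 1.55. CSN2 was at 4.66, 15.33, 5.33, 14.80 and 15.06 with much muscle and at 4.51, 4.90, 13.16, 5.52 and 14.94 with little. It was over 10 in 3 arrays at one end and 2 at the other, in teats of 963, 964 and 957, and at most 5.52 in the rest.

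Within the animals with CSN2 over 10 the CSN2 difference was 1.01, and within the others it was 0.02. In these strata, of 3 arrays against 2 and 2 against 3, the adipocyte median was 0.29 and 1.09, the fibroblast and matrix median -0.06 and -0.27, the endothelial median -0.13 and 0.43 and the luminal median 0.05 and -0.33. The fat and matrix medians thus kept their sign in both strata, and the vessel and luminal medians did not.

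Basal and keratinocyte genes were lower for 9 of 12 (median -0.22). The median was -0.06 without the normal teat of 1058, -0.30 without the inverted teat of 964 and -0.03 with the means of the label groups removed. TRIM29, a protein of stratified epithelia, was at 7.30, 7.53, 6.83, 7.0 and 7.26 with much muscle and 7.44, 7.72, 7.86, 7.51 and 7.60 with little, where only the inverted teat of 964 reached into the range of the little-muscle arrays. COL17A1, the collagen of hemidesmosomes, was at 7.63 ± 0.23 and 8.02 ± 0.29 (SD, n = 5 each), and the desmosomal DSP differed by -0.35. The lowest difference on the basal list was -0.47. Larger ones lay outside it. The tight junction gene CLDN11, on no list, was at 7.43 ± 0.50 and 8.68 ± 0.91. The antimicrobial peptide NPG4, the lowest member of the luminal and milk list with -1.49, had 6.77 ± 1.07 and 8.26 ± 0.57. Its other probe sets, all under the filter, ran from -0.57 to 0.38.

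**Figure D3:**
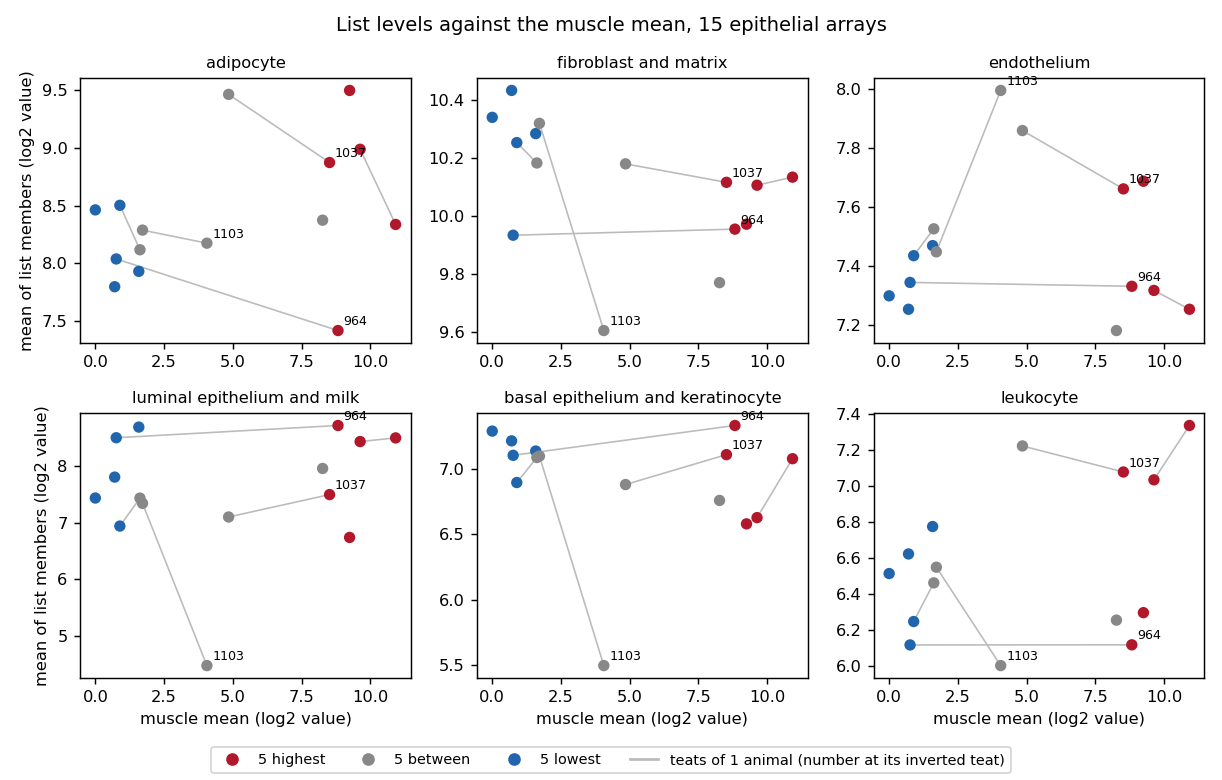
Mean log2 value of the members of 6 lists above the filter (vertical axes) against the muscle mean (horizontal axes) in the 15 epithelial arrays, with lines joining the teats of 1 animal. The much-muscle arrays spread from 7.42 to 9.50 in the adipocyte panel, and the line of 964 falls there while its muscle mean climbs from 0.76 to 8.82. In the luminal panel the inverted teat of 1103 lies far below the rest at 4.47.

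Other cell types and housekeeping lists completed the picture. Leukocyte genes were higher for 28 of 29 members, with a median of 0.30 and none called. The median was 0.13 without the normal teat of 963 and 0.50 without the inverted teat of 964. The immunoglobulin joining chain JCHAIN was higher by 1.22, the monocyte receptor CD14 by 0.75 and the T cell coreceptor CD8A by 0.67. The list means overlapped broadly, at 6.12 to 7.34 with much and 6.12 to 6.78 with little muscle. Nerve and Schwann cell genes were higher for 7 of 9 (median 0.15), and hemoglobin genes were level, with HBB at -0.12.

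Respiratory chain genes were higher for 49 of 58, but by a median of only 0.11. CYCS, cytochrome c, was at 8.29 to 8.62 with much and 7.70 to 8.02 with little muscle, ranges that did not overlap, with a difference of 0.58. The beta subunit of ATP synthase, ATP5B, was higher by 0.40 and the complex II subunit SDHC by 0.37. Glycolysis genes were higher for 11 of 13 (median 0.26), led by lactate dehydrogenase A, LDHA, with 0.73 and the aldolase ALDOC with 0.70. LDHA was at 10.55, 9.82, 10.27, 10.50 and 10.82 against 9.63, 9.92, 9.47, 9.51 and 9.80, so the inverted teat of 964 alone reached into the range of the little-muscle arrays. Cytosolic ribosome genes were lower for 46 of 50 by a median of only -0.06, and immediate early and heat shock genes had a median of 0.00.

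The largest differences outside the muscle lists were in secreted proteins with high values on some arrays and far lower ones on others. CHIA, an acidic chitinase, differed by -6.47, the apocrine gland protein PIP by -4.82, the secretoglobin SCGB1D1 by -4.71 and PHEROC, a secretory protein named for binding steroid pheromones, by -4.38. CHIA was at 9.19, 10.95, 11.75 and 11.01 in the normal teats of 1040, 1109, 964 and 957, and listed at 0 in the inverted teat of 1059 and in 4 much-muscle arrays. The inverted teat of 964 had it at 10.56. SCGB1D1 took the same course, at 15.59 to 19.17 in those 4 normal teats, at 18.49 in the inverted teat of 964, and at 9.07 to 9.62 in the other arrays of both ends. The inverted teat of 1103, between the ends, had intermediate values of CHIA at 5.80, PIP at 8.80 and PHEROC at 5.11. Its SCGB1D1, at 8.27, was the lowest of the 15 epithelial arrays. The mean of the 4 genes was over 10 in 4 of 5 little-muscle, 2 of 5 intermediate and 1 of 5 much-muscle arrays. It was also over 10 in 3 of 15 mesenchymal arrays, from the normal teats of 1040 and 950 and the inverted teat of 964.

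**Figure D4:**
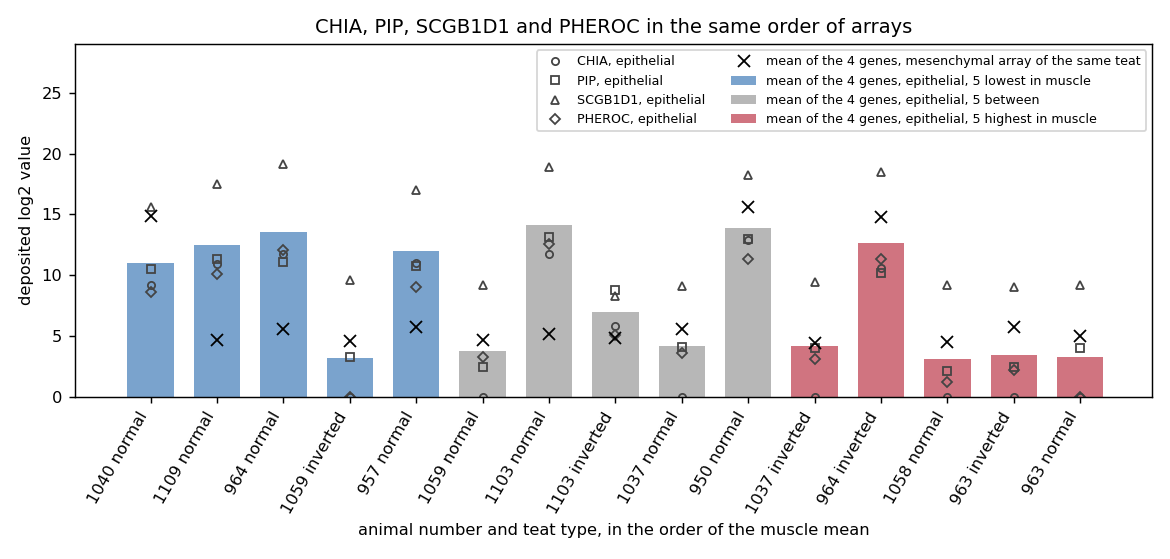
Log2 values of CHIA, PIP, SCGB1D1 and PHEROC (open symbols) and their mean (bars) in the 15 epithelial arrays in the order of the muscle mean, with their mean in the mesenchymal array of the same teat (crosses). Bars are over 10 in 7 of 15 epithelial arrays, 4 of them among the 5 lowest in muscle, and crosses in 3 of 15 teats.

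Among the other genes outside the muscle lists, PI3, the elastase inhibitor elafin, was higher by 2.56. It was at 8.10 and 8.12 in the teats of 963, at 2.91 to 6.0 in the other much-muscle arrays, and at 0 to 4.96 with little muscle. PPP1R1A, an inhibitor of protein phosphatase 1, was at 7.10 ± 0.84 and 5.52 ± 0.73 (SD, n = 5 each), and DDO, D-aspartate oxidase, at 5.41 ± 0.83 and 3.80 ± 0.93. The heat shock gene HSPA6 differed by 1.30, but the highest of all these values, 11.27, was in the normal teat of 1040 with little muscle. Lower with much muscle were HPD, an enzyme of tyrosine breakdown, by -1.55, the neuronal LRRN3 by -1.47, the calcium release channel RYR2 by -1.43, whose other probe sets gave 0.15 and -0.08, and the carbonyl reductase CBR1 by -1.32. In HPD, RYR2 and CBR1 the ranges overlapped widely, and LRRN3 overlapped at its border, with 3.24 to 5.56 against 5.30 to 6.92. The genes LOC396711 with 1.38, CSN3 (kappa-casein) with 1.43 and LOC100522115 with -1.39 complete the 12 largest differences in each direction. The other LOC396711 probe set, under the filter, gave -0.59.

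The 5 animals with both teats on arrays allow a look at muscle and its neighbours with the animal held fixed. In 964 the muscle mean was 8.06 higher in the inverted than in the normal teat (8.82 and 0.76). In the same pair the adipocyte genes had a median difference of -0.50 and ADIPOQ of -1.83, while CILP differed by 1.72 and LOX by -0.12. In 1037 the muscle mean was 3.67 higher in the inverted teat, with an adipocyte median of -0.69 and ADIPOQ at -0.76. In 963 the inverted minus normal difference in muscle was -1.29 with an adipocyte median of 0.73, and in 1059 it was -0.73 with 0.47. In these 4 animals the adipocyte median and the difference in the mean of the 4 genes had opposite signs. At the ends of the rank both were positive. In 963 and 1059 the sign of the muscle difference is uncertain. In 1059 both teats stood low, at 0.89 and 1.62, and the fast sarcomere median was 0. In 963 both stood high, with MYLPF at 11.47 and 11.68 but MYH2 at 5.88 and 10.70 (inverted and normal). The fast sarcomere median was -0.24 there and the slow 0.15.

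In 1103 the muscle mean was 2.34 higher in the inverted teat with an adipocyte median of -0.02. That pair also differed in epithelium, with a luminal median of -2.89 and KRT19 at -4.81, in smooth muscle, with a median of 1.04, in fibroblast and matrix genes, with -0.79, and in endothelial genes, with 0.70. The fibroblast and matrix medians of the other animals stayed between -0.10 and 0.09, and the endothelial medians between -0.17 and 0.09.

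The teat labels, which the rank did not use, were tested for the muscle mean. Inverted teats had 6.38 ± 3.76 (SD, n = 5) and normal teats of the same animals 3.97 ± 4.18. The mean difference of 2.41 ± 3.78 (SD over 5 animals) was higher in 3 of 5 animals and did not pass an exact two-sided sign permutation test (p = 0.25, where 0.0625 is the smallest p that 5 animals allow). Normal teats had 3.97 ± 4.18 in affected and 3.96 ± 4.43 in non-affected animals, with a difference of 0.01 (exact two-sided permutation test, n = 5 against 5, p = 0.984). The SD within a label group, 3.76 to 4.43, was wider than either difference.

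The mesenchymal arrays were not used for the rank and give an independent view of the same teats. In 13 of 15 the muscle mean lay between 9.62 and 13.47, and in 14 of 15 teats it was higher than in the epithelial array. The mesenchymal array of the inverted teat of 963 stood at 2.25, far under its epithelial array at 9.63, and that of the normal teat of 1040 stood at 1.87, beside an epithelial array at 0. The first thus goes against the order of the layers seen in the other teats, and the main results from the mesenchymal arrays are given with and without it. The mesenchymal partners of the much-muscle arrays were at 11.85, 11.65, 13.44, 2.25 and 13.25, and those of the little-muscle arrays at 1.87, 12.21, 12.38, 13.38 and 10.83. They overlapped throughout, with a mean difference of 0.36 ± 4.69 (pooled SD, exact two-sided permutation test, n = 5 against 5, p = 0.762). Without the inverted teat of 963 the difference was 2.42 (exact p = 0.468), and without the normal teat of 1040 it was -1.71 (exact p = 0.794).

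Across all probe sets, the mesenchymal partners of the much-muscle and little-muscle epithelial arrays differed in 0 of 17839 (limma, adjusted p under 0.05, 0% called), with 301 under 0.05 before adjustment. Of 31 adipocyte genes 28 were lower in the partners of much-muscle arrays (median -0.36, beside 0.04 over all genes), the opposite direction to the epithelial arrays. GPD1 differed there by -0.04 ± 0.54 (SE) and LPL by -0.39 ± 0.28, and LOX by -0.17 ± 0.40. GPAM differed by 1.69 ± 0.59 (SE), with an unadjusted limma p of 0.012 that did not pass the adjustment. The median was 0.04 for fibroblast and matrix genes, -0.01 for endothelial, -0.15 for luminal and -0.32 for basal genes. Without the inverted teat of 963, 25 of 31 adipocyte genes were lower (median -0.44), and the medians were -0.04, 0.01, -0.33 and -0.35 in the same order of lists. GPD1 then differed by 0.10 ± 0.58, LPL by -0.50 ± 0.30, LOX by -0.18 ± 0.44 and GPAM by 1.65 ± 0.65 (SE), with no limma adjusted p under 0.05.

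In the mesenchymal arrays each probe set was also regressed on the muscle mean of the same array, to see which genes follow muscle where the rank was not made. Slopes are log2 units per log2 unit of the muscle mean, and the 4 ranking genes were left out. The slope passed the limma threshold (adjusted p under 0.05) in 116 of 17835 probe sets with a positive sign (0.65%) and in 2 with a negative sign (0.0112%), or 4 with the animal as a replicate block. All 5 tested genes of the fast sarcomere list were called with a positive slope, as were 23 of 36 of sarcomere and Z-disc structure, 8 of 18 of muscle energy supply and 3 of 9 slow sarcomere genes. CKM had a slope of 0.77 ± 0.04 (SE), TTN of 0.81 ± 0.05 and SLN of 0.86 ± 0.04. Of the genes called in the epithelial description, 22 were also called here.

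Few genes of the neighbouring tissues were called. Over all probe sets the called shares were also small, 0.65% positive and 0.0112% negative. Lists this short hold few or no calls at such shares, so nothing is read from counts of 0. Of the lists outside muscle, 0 of 31 adipocyte, 0 of 37 fibroblast and matrix, 0 of 33 luminal, 0 of 12 basal and 0 of 28 leukocyte genes were called, and their median slopes lay between -0.03 and -0.01. Of 5 tendon and perimysium genes 0 were called, or 1 with the animal as a replicate block. That gene was CILP, with 0.21 ± 0.05 (SE, limma adjusted p = 0.146) and 0.22 with the block (adjusted p = 0.040). GPD1 had a slope of 0.07 ± 0.06 (SE), LPL of -0.03 ± 0.04 and LOX of 0.03 ± 0.05, with limma adjusted p of 0.751, 0.873 and 0.878. VWF alone of 25 endothelial genes was called, with a slope of -0.12 ± 0.03 (adjusted p = 0.041). CD5L, a macrophage protein, had -0.15 ± 0.03 (adjusted p = 0.040). LDHA was the only called gene of 13 on the glycolysis list, joined by GAPDH with the block (0.08, adjusted p = 0.024, against 0.092 without it). On the positive side, an ACTG1 probe set, the one with the large epithelial difference, had the smallest adjusted p among the named genes outside the muscle lists, with a slope of 1.05 ± 0.08 (adjusted p = 4.8e-07). GDF11, a growth factor of the TGF-beta family, had 0.58 ± 0.05 (adjusted p = 1.8e-06) and PDLIM5, a Z-disc protein that was on no list, 0.48 ± 0.07 (adjusted p = 0.00063). UBXN2A had 0.40 ± 0.06, ABRA, an actin-binding activator of muscle gene transcription, 0.58 ± 0.09, the acrosin gene ACR 0.15 ± 0.03 and LDHA 0.23 ± 0.04 (adjusted p = 0.0023). LOC396711, among the largest epithelial differences, had 0.31 ± 0.08 (adjusted p = 0.099), or 0.40 with the block (adjusted p = 0.0098).

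Because the 2 arrays with little muscle, from the normal teat of 1040 and the inverted teat of 963, lie far from the other 13, the regression was repeated within the 13. Among them MYLPF ran only from 11.57 to 13.48 but MYH2 from 4.86 to 13.64, with its lowest values in both teats of 1037. On the muscle mean MYH2 had a slope of 1.94 ± 0.25 (SE) and MYLPF of 0.54 ± 0.09. Slopes within the 13 thus lean on MYH2 more than on MYLPF. There 466 probe sets had a called positive slope (2.61%) and 200 a called negative slope (1.12%). The adipocyte, fibroblast and matrix, luminal and basal lists again had no called gene in either direction. The endothelial list had 2 of 25 with a negative slope, VWF at -0.32 ± 0.06 (SE, limma adjusted p = 0.0094) and TIE1 at -0.33 ± 0.08 (adjusted p = 0.032). The leukocyte, tendon, smooth muscle and nerve lists each had 1 called gene. These were CD74, a chaperone of antigen presentation, at -0.38 ± 0.10 (adjusted p = 0.042), the collagen COL11A1 at -0.35 ± 0.07 (adjusted p = 0.018), the intermediate filament protein SYNM at 0.91 ± 0.17 (adjusted p = 0.0088) and the neurofilament NEFL at 0.35 ± 0.09 (adjusted p = 0.048). LDHA had 0.58 ± 0.08 (adjusted p = 0.0020), GDF11 0.79 ± 0.17 and ABRA 1.22 ± 0.26. CD5L was at 0.01 ± 0.10 and was no longer called. UBXN2A and ACR had larger slopes than over all 15 arrays, 0.66 ± 0.19 and 0.25 ± 0.09, that did not pass (adjusted p = 0.068 and 0.148). PPP1R1A, one of the largest differences in the epithelial arrays, had 0.84 ± 0.18 (adjusted p = 0.019), while over all 15 arrays its slope was 0.26 ± 0.07 (adjusted p = 0.168, or 0.028 with the animal as a replicate block). Without the inverted teat of 963 alone, 87 positive and 2 negative slopes were called. GDF11 then had 0.58 ± 0.07 (adjusted p = 0.00014), LDHA 0.25 ± 0.05 (adjusted p = 0.018) and VWF -0.17 ± 0.03 (adjusted p = 0.0059), while UBXN2A, ABRA, ACR and CD5L did not pass, with adjusted p of 0.087, 0.092, 0.087 and 0.143. CILP, LOC396711 and PPP1R1A, fitted with no block, did not pass either. Their slopes were 0.20 ± 0.07, 0.28 ± 0.10 and 0.25 ± 0.09 (SE, limma adjusted p = 0.305, 0.306 and 0.320). Called with a positive slope were 15 of 36 genes of sarcomere and Z-disc structure, 8 of 18 of muscle energy supply and 2 of 9 slow sarcomere genes. The adipocyte, fibroblast and matrix, tendon, luminal, basal and leukocyte lists had 0 called genes, and the endothelial list 2. Without the normal teat of 1040 alone, 87 positive and 0 negative slopes were called.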

How the data were processed

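The deposited values are log2 probe set summaries of 24123 probe sets on 30 arrays. The submitters' processing notes name GCOS 1.1.1 and PLIER without a role or a normalization. Base 2 was read from the range that the values span, and an exact 0 is the lowest value listed. Scan dates or other batches were not given in the sources used here.

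The 124 control probe sets were left out, and a probe set entered where it lay above the 30th percentile of its array on at least 5 arrays of the tissue. A single gene symbol was given for 10099 probe sets, several for 198 and none for 13826, in the platform annotation. Of the single-symbol probe sets, 9989 matched RefSeq by Entrez ID. They cover 6765 genes, each read from its brightest probe set (mean over 30 arrays).

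The members and the 21 gene lists were chosen with earlier results of these data known. In the epithelial arrays a probe set was called where the means differed by over 1 and the ranges did not overlap. Named genes were the 4 ranking genes, the 12 largest differences per direction outside the muscle lists, the 3 largest per list, and up to 5 called genes outside the muscle lists per direction in each fit. Other names were chosen after their values were seen. The labels and the mean of the 4 genes were tested with exact permutation tests. The mesenchymal arrays were fitted with limma 3.58.1 in R 4.3.3 (lmFit, eBayes) with Benjamini-Hochberg adjustment over all probe sets and a threshold of 0.05, tested on simulated data.

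Teats of 1 animal share a number in the labels and so pair the samples. After removal of the group means they correlated with r from 0.26 to 0.58 in epithelium and 0.13 to 0.70 in mesenchyme over 5 pairs each.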

Additional observations from a re-analysis of the deposited data

Results flagged for a closer look

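In 196 sets of 5 arrays, each an end of the muscle rank or a label group, an array was marked where its gap to the next was over 0.71 of the whole range. Chance marks about 1 in 20 sets of independent, normally distributed values, and 24 were marked. These sets share arrays and hold related genes, and some hold several arrays at the lowest value listed. The ends were also chosen by the muscle genes, and some of the genes by their differences between the ends. The 24 marks therefore cannot be compared with that rate, and no excess is read from them.

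Among the arrays with much muscle the inverted teat of 964 stood apart most often. It was the lowest in the mean of the lists of muscle energy metabolism (7.51, others from 8.33), respiratory chain (8.94, others from 9.17) and glycolysis (8.81, others from 9.35). It was also the lowest in BIN1, a membrane-shaping protein of muscle tubules (8.44), and SDHC (7.84). The same array was the highest in CHIA (10.56, the others at 0), PIP (10.16), SCGB1D1 (18.49) and PHEROC (11.30). The inverted teat of 963 was listed at 0 for the oxytocin receptor OXTR, with the others from 4.48.

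Among the arrays with little muscle the inverted teat of 1059 was the lowest in PI3, CHIA and PHEROC, each listed at 0, and in PIP at 3.31. The normal teat of 1040 was the highest in the mean of the nerve and Schwann cell list (5.78), in HSPA6 (11.27, others up to 5.99) and in the growth arrest gene GADD45A (7.71). The normal teat of 1109 was the highest in LOX (11.41) and in KLHL41 (1.71, the others at 0). The normal teat of 957 was the lowest in SLN (0.99) and the highest in ATP5B (10.91), and the normal teat of 964 the highest in TNNT3 (0.70, the others at 0).

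For the muscle mean of the mesenchymal arrays, the normal teat of 1040 was the lowest of the non-affected animals at 1.87 and the inverted teat of 963 the lowest of the inverted teats at 2.25.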

How the results depend on the processing

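The count of 41 higher probe sets became 65 without the filter, 22 with 7 against 7 arrays, and, chosen after seeing the data, 140 in animals with CSN2 over 10 and 148 in the others, where fewer arrays can overlap. It ran from 41 to 58 without one array. The 2 lower probe sets became 1 with quantile normalization, 18 without the filter, 10 with 4 against 4 arrays, 1 with 6 against 7 (chosen after seeing the data), 5 with teats of 1 animal averaged, 29 and 99 in animals with CSN2 over and under 10, and 1 to 12 without one array. The mean of all probe sets of a gene gives no such counts. The much-muscle arrays were the same 5 when ranked after quantile normalization, by all 6 muscle lists or by MYLPF alone, and the little-muscle arrays shared 5, 4 and 4. The adipocyte and the fibroblast and matrix medians kept their sign in all 22 alternatives. The endothelial median of 0.05 changed sign in 5, with -0.13 and 0.43 in animals with CSN2 over and under 10, the luminal median changed sign in 4 and the basal median in 1.

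In the mesenchymal arrays the 0 calls between partners stayed 0 in all alternatives run, and 799 probe sets had an unadjusted limma p under 0.05 with the replicate block, against 301. The 116 positive slopes became 172 with the replicate block, 466 without the 2 arrays farthest from the median, and 87 to 118 without one array. The 2 negative slopes became 0 without the filter, 4 with the replicate block, 1 with the label group as a covariate, 200 without those 2 arrays, and 0 to 2 without one array. The slope of CD5L reversed from -0.15 to 0.0064 without the 2 arrays. Leaving out one array, the difference in the muscle mean ran from -1.72 (without the normal teat of 963) to 1.34 between affected and non-affected animals, from 1.0 to 3.34 between inverted and normal teats, and from -1.71 to 2.42 between mesenchymal partners. With no replicate block the inverted minus normal difference of 2.41 had an exact permutation p of 0.349. Levels at or near 0 carry no order, so the size of differences against them is not settled, and 5 arrays an end cannot separate muscle content from animal.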
